A study of Mus musculus with 10 samples.

Results

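The TRIM (tripartite motif) family was followed in bulk RNA from mouse melanomas that overexpressed either of 2 forms of IL-18. Its members were chosen by name and abundance: every gene whose symbol is Trim with digits and an optional letter, and whose mean over the 10 tumors was at least 10 counts. This gave 52 members of 64 such genes among 17737 genes in the count table. The members at the lower edge were Trim69 with a mean of 10.9 counts and Trim55 with 11.2, and the nearest genes outside were Trim43c with 9.1 and Trim10 with 7 counts. Of the 52 members 50 had enough counts to be tested, while Trim6 and Trim55 did not.

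The tumors grew under the skin of the right flank of C57BL/6 mice from implanted B16-F10 cells, a mouse melanoma line, and were collected on day 11. In WT tumors (5, numbered 2 to 6) the implanted cells overexpressed wild-type IL-18, and in D69A tumors (5, numbered 1 to 5) an IL-18 whose aspartate at position 69 was replaced by alanine. Overexpression, cell line, host strain, site and day are thus shared by both groups, and no tumor without overexpression was analysed here. The labels do not state whether a line was 1 clone, or whether each tumor came from its own mouse. A difference between the lines thus cannot be told apart from the substitution. Each p-value sets the difference between the groups against the spread of these samples only. Total counts ranged from 25904345 in WT tumor 6 to 37578722 in D69A tumor 5. Levels are given as CPM (counts scaled to a common library total and for composition), and a call is a p under 0.05 by the quasi-likelihood test of edgeR after adjustment over all 13798 genes tested (Benjamini-Hochberg), written below as "edgeR adjusted p". Il18 itself was at 27 to 33 CPM in WT tumors and at 25.2 to 30.4 CPM in the D69A group (log2 fold change -0.12, edgeR adjusted p = 0.266), and a count per gene does not show the substitution. The labels do not say whether the overexpressed sequence is counted under Il18, so these values may not measure it.

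TRIM proteins carry a RING domain, B-boxes and a coiled coil, followed by a C-terminal region that differs between subfamilies and selects the target. Most act as E3 ubiquitin ligases, which attach ubiquitin to other proteins. Many members take part in the interferon response: some bind viral capsids, some ubiquitinate the sensors and adaptors that detect foreign nucleic acid, and some are themselves induced by interferon, a signal that IL-18 promotes through natural killer and T cells. Other members act in chromatin, in the cytoskeleton of neurons or in the turnover of muscle proteins.

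In D69A tumors 25 of the 50 tested members were lower and 7 were higher, against 24.7% lower and 18.8% higher among all genes tested (43.5% in either direction). At least 2-fold decreases numbered 15 (15.8% of all genes tested), and no called member was higher by 2-fold or more (0.507% of all genes). In 19 members every D69A tumor lay below every WT tumor (17.4% of all genes), and in 4 every D69A tumor lay above (12% of all genes). The median log2 fold change was -0.45 over the tested members and 0 over all genes. Members with decreases of at least 2-fold were the 9 tested genes of a cluster on chromosome 7, the innate signalling genes Trim14, Trim25 and Trim21, and Trim66, Trim47 and Trim69. Of these, Trim69 reached the minimum of the filter on low counts (0.275 CPM in 5 tumors) in 0 D69A tumors, Trim66 and Trim34b in 3 and Trim30c in 4, so that they entered the test through the WT tumors. With WT tumors 3 and 4 and D69A tumor 1 left out, the tumors highest in skeletal muscle markers, 19 members were lower and 5 higher. Calls over all genes also fell with these tumors left out, from 3410 to 2615 lower and from 2594 to 1727 higher.

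**Figure D1:**
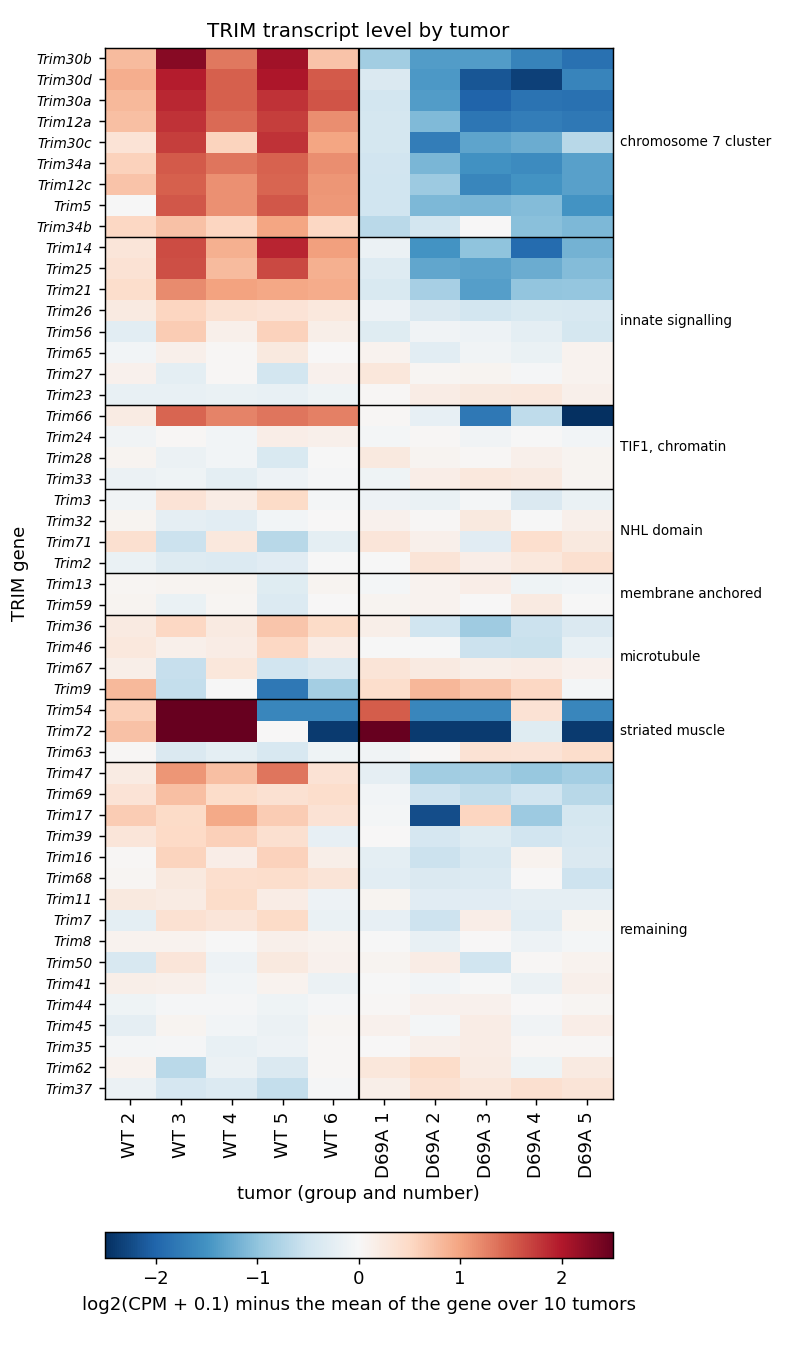
Transcript level of the 50 tested TRIM genes (rows, grouped by role) in each of the 10 tumors (columns, WT left and D69A right of the line), as log2(CPM + 0.1) minus the mean of that gene over the tumors. The chromosome 7 cluster and Trim14, Trim25 and Trim21 are higher (red) in WT than in D69A tumors (blue), with WT tumor 2 the lowest WT tumor and D69A tumor 1 the highest D69A tumor in 8 of the 9 cluster genes each, and Trim54 and Trim72 are high in WT tumors 3 and 4 and D69A tumor 1.

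**Figure D2:**
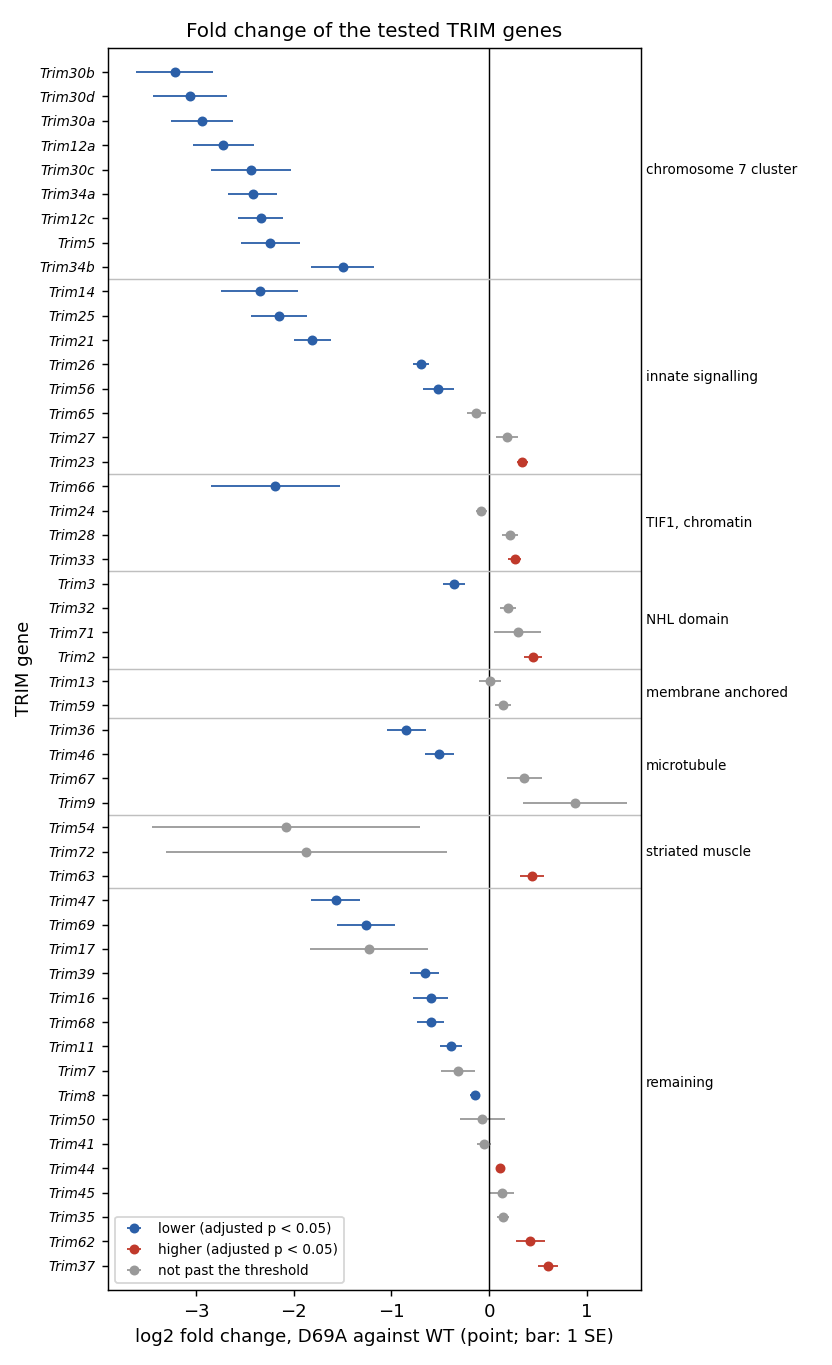
Log2 fold change of D69A against WT tumors for the 50 tested TRIM genes (points, with bars of 1 SE, n = 5 tumors each), grouped by role and coloured by call. Decreases reach -3.22 (Trim30b), whereas the largest called increase is 0.6 (Trim37).

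Levels also differed widely between members. Per length of exon sequence, Trim28 stood highest at 62.6 RPKM (CPM per kilobase of all annotated exons, mean of 10 tumors), followed by Trim35 at 45.1 and Trim44 at 33.3 RPKM. At the lower end were Trim66 at 0.0962, Trim6 at 0.0689 and Trim9 at 0.0352 RPKM. In WT tumors Trim30a reached 32.4 RPKM, near Trim44 at 32 RPKM, and in D69A tumors 4.21 RPKM. The summed level of all 52 members was 1910 ± 77.7 CPM in WT tumors and 1700 ± 32.4 CPM in the D69A group (with SDs over 5 tumors). The 10 cluster members made up 292 ± 74.8 CPM of this sum in WT tumors and 43.9 ± 19.9 CPM in the D69A group, and the 42 others 1620 ± 37.3 and 1650 ± 15.2 CPM.

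The cluster held the 6 largest decreases of the family. It spans chromosome 7 from 104218793 to 104507849 (mm10, 289 kb), with no other gene of the count table between its ends, and contains Trim6, Trim34a, Trim5, Trim12a, Trim34b, Trim12c, Trim30b, Trim30c, Trim30a and Trim30d. Human TRIM5, the relative of the mouse Trim5 and Trim12 genes, binds the capsid of incoming retroviruses. All 9 tested members were lower in D69A tumors (24.7% of all genes tested), with log2 fold changes from -3.22 to -1.5 and a median of -2.44. In each the groups did not overlap (17.4% of all genes tested were lower without overlap). Trim34b reached the minimum of the filter on low counts in 3 D69A tumors and Trim30c in 4, so that both entered the test through the WT tumors. Within 500 kb on either side 3 genes could be tested: Hbb-bs (log2 fold change 0.37, edgeR adjusted p = 0.523), Hbb-bt (0.33, edgeR adjusted p = 0.556) and Usp17le (-0.84, edgeR adjusted p = 0.13).

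Trim30a (chromosome 7, 104409025 to 104465193) was the most abundant member of the cluster and encodes a protein that restrains Toll-like receptor signalling to NF-kB. It stood at 79.8, 167, 128, 158 and 134 CPM in WT tumors 2 to 6 and at 33.1, 17.2, 11.3, 12.5 and 12.3 CPM in D69A tumors 1 to 5, the order kept for every gene below. WT tumor 2 was the lowest of its group and D69A tumor 1 the highest of its own, and the groups were still apart by more than 2 times. The means, with SDs over 5 tumors, were 133 ± 33.9 CPM in WT tumors and 17.3 ± 9.15 CPM in the D69A group, 7.69-fold lower (log2 fold change -2.94, SE 0.32, edgeR adjusted p = 0.000408).

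Its neighbour Trim30d had the same tumors nearest to the other group. The WT values were 23.9, 50, 36.2, 51.8 and 37.1 CPM and the D69A values 9.86, 4.65, 2.82, 2.43 and 3.96 CPM, a log2 fold change of -3.06 (SE 0.38, edgeR adjusted p = 0.000472). Trim30b had the largest fold change of the family at a far lower level, with 2.4, 6.86, 3.51, 6.05 and 2.26 CPM in WT tumors and 0.695, 0.445, 0.451, 0.355 and 0.299 CPM in the D69A group (log2 fold change -3.22, SE 0.39, edgeR adjusted p = 0.000469). For Trim30c the values were 1.27, 3.47, 1.49, 3.67 and 2.03 CPM in WT tumors and 0.695, 0.223, 0.33, 0.355 and 0.57 CPM in the D69A group, with a log2 fold change of -2.44 (SE 0.41). All 4 Trim30 genes were thus lower without overlap between the groups.

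The Trim12 and Trim34 pairs moved by less in fold than Trim30b and Trim30d. Trim12c was at 33.1, 57.1, 44.9, 55.5 and 43.3 CPM in WT tumors and at 14.2, 10.7, 6.43, 7.07 and 7.79 CPM in D69A tumors (5.06-fold lower, edgeR adjusted p = 0.000341). Trim12a was at 16.8, 35.1, 26.8, 33.1 and 22.3 CPM and 7.32, 4.54, 2.76, 2.93 and 2.82 CPM (6.57-fold lower, edgeR adjusted p = 0.000447). Trim34a, a relative of the interferon-induced human TRIM34, was at 17.8, 34.6, 30.2, 33.2 and 26.7 CPM in WT tumors and 8.53, 5.32, 4.14, 3.96 and 4.59 CPM in the D69A group (5.36-fold lower, edgeR adjusted p = 0.000362). The groups of all 3 genes were apart, again with WT tumor 2 lowest and D69A tumor 1 highest.

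The other tested cluster members were low. Trim5 ranged from 3.88 to 11.7 CPM in WT tumors and from 1.33 to 2.75 CPM in the D69A group (log2 fold change -2.24, SE 0.3), and Trim34b from 0.801 to 1.15 and from 0.19 to 0.541 CPM (log2 fold change -1.5, SE 0.32). Trim6, not tested, ranged from 0.258 to 0.884 CPM in WT tumors and from 0.0601 to 0.374 CPM in the D69A group, and these ranges overlapped. The cluster arose by duplication, and some reads cannot be assigned to a single copy. Of the 50-base stretches in Trim34b transcripts 56.8% also occur in Trim34a, and 39.8% of those in Trim34a occur in Trim34b. Trim5 shares 36.3% of its 50-base stretches with other genes, mostly Trim12c, and Trim12c shares 33%, whereas Trim30a shares 5.98% and Trim30d 7.49%. For Trim34a, 23.5% of the exon sequence also lies opposite the antisense gene Gm47248.

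The sequence around the start sites of the cluster is shown because its members moved together. RefSeq promoters (GRCm38.p6, the build of mm10; 250 bases before to 50 bases after a start site) were found for 40 of the 52 members. The core of the interferon-stimulated response element, GAAA, any 2 bases and GAAA, searched on both strands so that its reverse complement also counts, occurred in 3.44% of all 32851 promoters and, counting a gene if any of its promoters holds it, for 3.99% of 27025 genes. It occurred for 8 of the 19 members with a promoter that were lower (42.1%), for 1 of 6 that were higher (Trim2, in 1 of its 5 promoters) and for 0 of 14 that were not called, and the promoter of Trim6, not tested, held none. The 8 were Trim5, Trim12a, Trim12c, Trim30a, Trim30d and Trim34a of the cluster, and Trim21 and Trim26. Some of these cluster promoters are near copies of each other (below), so the 8 are not separate observations. The promoters of the cluster members Trim30b, which had the largest decrease of the family, Trim30c and Trim34b held no match to this core. The gamma-activated site, TTCNNNGAA, which reads the same on both strands, occurred in 8.3% of all promoters, for 9.55% of genes and for 3 of the 40 members (7.5%), namely Trim30c, Trim45 and Trim46. No member held both motifs, and a match is a string of letters, not a measured binding site.

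Below, the match to the response element core is in capitals with up to 40 bases on each side (for Trim30a the whole promoter), each written along the strand of its gene. In Trim30a the match began 36 bases before the start site, in Trim30d 41, in Trim5 49 and in Trim12c 29 bases before it, and in Trim12a and Trim34a 10 bases after it.
Trim30a (chr7:104465144-104465443, minus strand): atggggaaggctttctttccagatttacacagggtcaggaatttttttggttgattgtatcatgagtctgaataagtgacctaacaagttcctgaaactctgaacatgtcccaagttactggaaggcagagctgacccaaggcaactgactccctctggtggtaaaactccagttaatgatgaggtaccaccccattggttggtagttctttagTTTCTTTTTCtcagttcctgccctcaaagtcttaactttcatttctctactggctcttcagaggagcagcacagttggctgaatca
Trim30d (chr7:104507841-104507930, minus strand): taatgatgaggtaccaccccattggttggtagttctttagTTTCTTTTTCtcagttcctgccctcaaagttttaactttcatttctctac
Trim5 (chr7:104288106-104288195, minus strand): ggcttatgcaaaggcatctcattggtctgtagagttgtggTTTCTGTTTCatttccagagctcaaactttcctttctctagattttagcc
Trim12a (chr7:104315446-104315525, minus strand): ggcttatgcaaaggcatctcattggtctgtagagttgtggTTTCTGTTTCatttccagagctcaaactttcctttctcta
Trim12c (chr7:104353329-104353418, minus strand): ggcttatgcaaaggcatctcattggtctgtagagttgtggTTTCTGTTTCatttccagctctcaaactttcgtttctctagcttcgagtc
Trim34a (chr7:104244427-104244506, plus strand): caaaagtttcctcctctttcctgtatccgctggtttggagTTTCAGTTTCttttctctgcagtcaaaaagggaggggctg
The stretches of Trim5 and Trim12a were identical over the 80 bases compared, Trim5 and Trim12c differed at 7 of 90, and Trim30a and Trim30d at 1 of 90, so these are near copies and not separate observations. Trim30a has another promoter in the table (chr7:104446076-104446375), which also held a match.

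**Figure D3:**
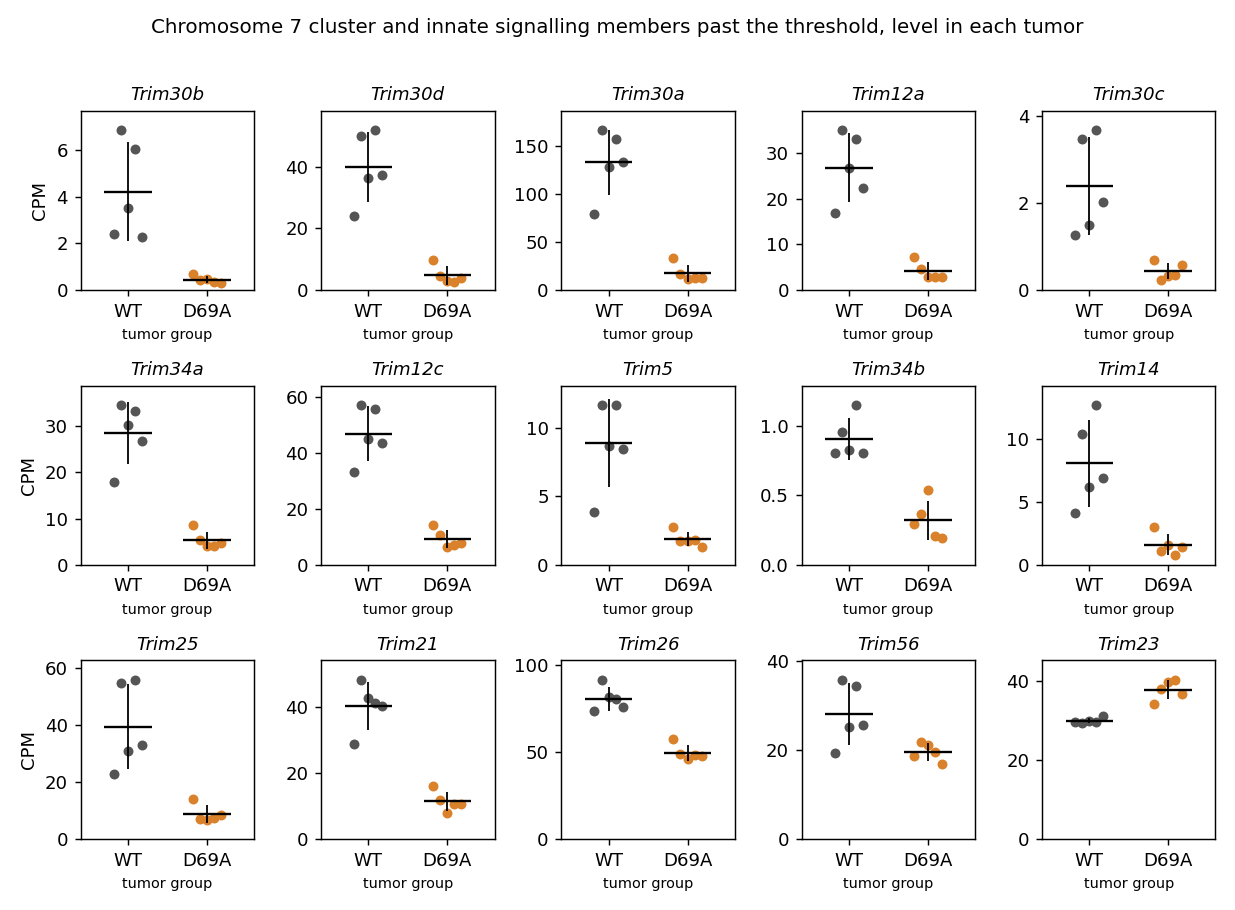
CPM of the called members of the chromosome 7 cluster and of the innate signalling group in each tumor (1 point per tumor, WT grey and D69A orange; bars mark the mean and 1 SD, n = 5). All panels but Trim56 show groups that do not overlap, and Trim23 alone of the 15 is higher in D69A tumors.

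Members that act on nucleic acid sensing moved in part. Of 8 tested innate signalling members 5 were lower and Trim23 was higher (24.7% and 18.8% of all genes tested). Trim15, Trim31, Trim38 and Trim40 of that list lay below the 10 counts required. Trim25, the ligase that ubiquitinates the RNA sensor RIG-I, stood at 23, 54.6, 30.9, 55.9 and 33 CPM in WT tumors and at 14.3, 7.16, 6.97, 7.48 and 8.39 CPM in D69A tumors. WT tumors 3 and 5 were far above the other 3 of their group, D69A tumor 1 was above the other 4, and the groups were apart (4.45-fold lower, log2 fold change -2.15, SE 0.29, edgeR adjusted p = 0.000592).

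Trim21, the cytosolic receptor for antibodies bound to virus, also separated the groups. It was at 28.7, 48.3, 42.7, 41.3 and 40.4 CPM in WT tumors and 16.2, 11.9, 8.02, 10.6 and 10.7 CPM in the D69A group, 3.51-fold lower without overlap (log2 fold change -1.81, SE 0.19, edgeR adjusted p = 0.00037). Trim14, an adaptor of mitochondrial antiviral signalling that lacks a RING domain, was at 4.08, 10.4, 6.21, 12.7 and 6.88 CPM in WT tumors and 2.97, 1.11, 1.59, 0.799 and 1.41 CPM in the D69A group (log2 fold change -2.35, SE 0.39, edgeR adjusted p = 0.00118). For Trim14, exons of Nans lie opposite 31.3% of the exon sequence, and reads of the 2 genes cannot be told apart unless strand was used in counting.

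A smaller decrease was found for Trim26, a gene of the major histocompatibility region on chromosome 17 (36837134 to 36859398). It was at 73.8, 91.5, 81.7, 80.2 and 75.6 CPM in WT tumors and 57.5, 49.1, 45.8, 48.5 and 47.5 CPM in the D69A group, so that the groups were apart at a fold of 1.62 (log2 fold change -0.7, SE 0.08, edgeR adjusted p = 0.000411). Trim56, which acts on the DNA sensing adaptor STING, overlapped between groups, from 19.3 to 35.9 CPM in WT tumors and from 17 to 21.8 CPM in the D69A group (log2 fold change -0.52, edgeR adjusted p = 0.0221). Its call was lost without any of WT tumors 3 and 5 and D69A tumors 4 and 5. Trim23, which carries an ARF-type GTPase domain besides its ligase domains, went the other way, from 29.6, 29.5, 30, 29.8 and 31.1 CPM in WT to 34.3, 38.1, 39.9, 40.4 and 36.7 CPM in D69A tumors (1.26-fold higher, log2 fold change 0.34, SE 0.06, edgeR adjusted p = 0.00128). Trim27 (log2 fold change 0.18, SE 0.11) and Trim65 (-0.13, SE 0.1), the latter a ligase for the RNA sensor MDA5, were not called.

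Promoters of this group are shown for Trim21 (whole) and Trim26 (the match with its flanks), where 2 overlapping matches to the response element core stand side by side, and for Trim25 (whole), which was lower by more than Trim21 and whose window held neither motif. In Trim21 the matches began 13 and 19 bases after the start site, and in Trim26 160 and 154 bases before it.
Trim21 (chr7:102565433-102565732, minus strand): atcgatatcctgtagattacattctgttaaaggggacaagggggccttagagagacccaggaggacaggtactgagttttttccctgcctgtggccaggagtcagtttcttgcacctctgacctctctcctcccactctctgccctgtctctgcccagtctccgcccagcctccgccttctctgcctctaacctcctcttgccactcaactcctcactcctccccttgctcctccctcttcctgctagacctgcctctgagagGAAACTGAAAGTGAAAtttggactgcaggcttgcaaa
Trim26 (chr17:36836946-36837041, plus strand): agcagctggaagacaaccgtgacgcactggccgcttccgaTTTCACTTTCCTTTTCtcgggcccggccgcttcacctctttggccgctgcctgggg
Trim25 (chr11:88999153-88999452, plus strand): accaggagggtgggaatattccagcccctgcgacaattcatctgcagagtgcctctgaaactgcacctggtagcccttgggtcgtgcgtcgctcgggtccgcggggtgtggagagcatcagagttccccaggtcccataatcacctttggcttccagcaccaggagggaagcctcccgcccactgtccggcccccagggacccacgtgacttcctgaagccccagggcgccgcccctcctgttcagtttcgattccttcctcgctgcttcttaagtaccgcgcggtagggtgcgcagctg
The absence of the letters in the Trim25 window says nothing about other positions or other forms of the element.

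Immune cell markers moved with these genes. For comparison, 24.7% of all genes tested were lower and 18.8% higher. Among 10 pan-leukocyte markers all 10 were lower in D69A tumors (median log2 fold change -2.17), and their summed level ranged from 590 to 1630 CPM in WT tumors and from 207 to 434 CPM in the D69A group. The lowest WT sum was that of WT tumor 2 and the highest D69A sum that of D69A tumor 1, the same tumors that stood nearest to the other group in 8 of the 9 tested cluster members each. The T and NK cell, macrophage and monocyte, and fibroblast sums given next had the same lowest WT and highest D69A tumors. For endothelial and B cell markers the highest D69A sum was also that of D69A tumor 1, but the lowest WT sum was that of WT tumor 6. T and NK cell markers were lower in 8 of 8 cases (median -2.81, sums from 35.4 to 93.7 CPM in WT tumors and from 7.79 to 21.7 CPM in the D69A group) and macrophage and monocyte markers in 5 of 7 (median -1.46, sums from 553 to 1450 and from 430 to 552 CPM), with Cd68 and Cd14 not called. Fibroblast markers were lower in 5 of 6 cases (sums from 2190 to 5760 CPM in WT tumors and from 369 to 1330 CPM in the D69A group). Endothelial markers were lower in 5 of 5 (sums from 206 to 271 and from 130 to 180 CPM). Of 5 B cell markers 2 could be tested and were lower, and 4 keratinocyte markers were all below 1 CPM on average. Of 4 tested erythroid markers 0 were called by edgeR, 0 at an unadjusted p under 0.05, and 0 by DESeq2 or limma-voom. No marker was at 0 in all 10 tumors. Melanocyte markers were higher in 4 of 7 cases (median 0.28, sums from 16000 to 19800 CPM in WT tumors and from 23500 to 30100 CPM in the D69A group). In bulk tissue fewer cells of a type and less RNA per cell cannot be told apart, and the part of cell content in the TRIM values was not tested.

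Genes that work with these TRIM proteins were taken from lists by function. Of 12 genes tested in the RNA and DNA sensing axis 9 were lower and Traf3 was higher (24.7% and 18.8% of all genes tested). The median log2 fold change of the 12 was -0.69. Ddx58, which encodes RIG-I, was lower by 3.22-fold, Ifih1 (MDA5) by 4.12-fold, Dhx58 (LGP2) by 5.26-fold and the transcription factor gene Irf7 by 7.82-fold. The adaptor gene Mavs (log2 fold change 0.1, SE 0.07) and the kinase gene Tbk1 (-0.09, SE 0.06) were not called. Another kinase gene, Ikbke (-0.79, SE 0.14), was lower, as were Irf3 (-0.44, SE 0.08) and the STING gene Tmem173 (-0.3, SE 0.08). Of 10 ubiquitin E1 and E2 genes, which hand ubiquitin to ligases such as TRIM proteins, 2 were lower (20%, against 24.7% of all genes tested). The 2 were Uba7 (5.15-fold) and Ube2l6 (3.74-fold), the enzymes of the ubiquitin-like modifier ISG15. The other 8 had log2 fold changes from -0.01 (Uba1) to 0.1 (Ube2n and Ube2k). Of 5 family members with other names 4 were lower (24.7% of all genes tested). The 4 were Pml (TRIM19, a component of nuclear bodies, log2 fold change -1.02, SE 0.12), Mefv (pyrin, -2.1, SE 0.35), Mid1 (-0.93, SE 0.3) and Bspry (-2.82, SE 0.54). Mid2, the paralog of Mid1, was not called (0.2, SE 0.08).

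The chromatin regulators of the family moved little, apart from Trim66. Trim28 encodes the corepressor of KRAB zinc finger proteins, which silences endogenous retroviruses. It was the most abundant member per length and stood at 272, 234, 246, 198 and 256 CPM in WT tumors and 306, 273, 264, 283 and 273 CPM in the D69A group. Of the 5 D69A tumors 4 lay above all WT tumors, and the difference was not called (log2 fold change 0.21, SE 0.08, edgeR adjusted p = 0.0548), although it passed with DESeq2 and without WT tumor 2 or D69A tumor 3. Trim24, a reader of histone marks, was at 57.5, 62.3, 58.3, 68.5 and 66.9 CPM in WT tumors and 58.5, 62.4, 57.1, 60.5 and 58.4 CPM in the D69A group (log2 fold change -0.08, edgeR adjusted p = 0.31).

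Trim33, which takes part in TGF-beta signalling through SMAD proteins, was slightly higher. Its values were 53.9, 55.2, 50.4, 54.4 and 58.1 CPM in WT tumors and 55.4, 66.4, 70.8, 69.7 and 62.6 CPM in the D69A group, with D69A tumor 1 inside the WT range (log2 fold change 0.26, SE 0.07, edgeR adjusted p = 0.0138). Trim66 was low and fell, from 0.775, 1.99, 1.7, 1.82 and 1.72 CPM in WT tumors to 0.668, 0.557, 0.12, 0.385 and 0 CPM in D69A tumors, where tumor 5 held no count (log2 fold change -2.19, SE 0.66, edgeR adjusted p = 0.02). Trim66 reached the minimum of the filter on low counts in 5 WT and 3 D69A tumors, so that it entered the test through the WT tumors. Its call was lost without the 3 tumors highest in muscle markers (edgeR adjusted p = 0.0601). Of 5 genes whose products bind the TRIM28 complex 1 was higher (20%, against 18.8% of all genes tested) and 0 were lower. The 1 was Cbx5 (heterochromatin protein 1 alpha, log2 fold change 0.27, SE 0.08), and the histone methyltransferase gene Setdb1 was not called (-0.02, SE 0.05).

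Members with an NHL domain, a propeller fold that binds RNA or protein, numbered 4, of which 1 was lower and 1 higher (24.7% and 18.8% of all genes). Trim2, which promotes turnover of neurofilament light chain in neurons, was at 28, 25.2, 24.8, 26.1 and 31.4 CPM in WT tumors and 31.4, 39.3, 35.3, 38 and 41.6 CPM in the D69A group (1.37-fold higher, log2 fold change 0.45, SE 0.09, edgeR adjusted p = 0.00267). The highest WT value and the lowest D69A value nearly met, without overlap. Trim3 was at 38.2, 51.3, 46.3, 56.3 and 39 CPM in WT tumors and 37.3, 36.3, 39, 31.4 and 36 CPM in the D69A group, which overlapped, and was called lower (log2 fold change -0.36, edgeR adjusted p = 0.0218). That call was lost without any of WT tumors 3 and 5 and D69A tumor 4. Trim32, linked to a muscular dystrophy, was at 39.4, 31.9, 31.1, 35.9 and 37.9 CPM and 40.2, 38.2, 44.2, 37 and 40.9 CPM (log2 fold change 0.19, edgeR adjusted p = 0.0788). The stem cell gene Trim71 was at 5.5, 2.84, 4.99, 2.54 and 3.48 CPM in WT tumors and 5.19, 4.57, 3.39, 5.59 and 4.97 CPM in the D69A group (log2 fold change 0.29, edgeR adjusted p = 0.345).

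Of the members anchored in membranes neither was called. Trim59 was at 70.9, 60.8, 69.8, 53.8 and 68.5 CPM in WT tumors and 70.9, 71.9, 68, 78.7 and 67.6 CPM in the D69A group (log2 fold change 0.14, edgeR adjusted p = 0.18). Trim13, which resides in the endoplasmic reticulum, was at 9.17, 9.32, 9.27, 7.2 and 9.33 CPM in WT tumors and 8.55, 9.44, 10, 8.16 and 8.39 CPM in the D69A group (log2 fold change 0.01, edgeR adjusted p = 0.952), and 14.2% of its 50-base stretches also occur in Gm9359.

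Members known from neuronal microtubules were low, and 2 of 4 were lower (24.7% of all genes tested). Trim36 was at 4.6, 5.68, 4.57, 6.35 and 5.51 CPM in WT tumors and 4.33, 2.73, 2.07, 2.66 and 3.04 CPM in the D69A group (1.8-fold lower, edgeR adjusted p = 0.00647). Trim46, which organises microtubules at the start of the axon, was at 7.18, 6.5, 6.77, 8.57 and 6.73 CPM and 5.91, 5.87, 4.08, 3.99 and 5.18 CPM (1.43-fold lower, edgeR adjusted p = 0.0184). In both genes the groups were apart, by less than 1 CPM, and Trim46 lost its call without WT tumor 5 or D69A tumor 3. Trim67 was at 6.15, 3.72, 6.77, 3.96 and 4.32 CPM in WT tumors and 7, 6.52, 6.13, 6.33 and 6 CPM in the D69A group, and Trim9 at 0.827, 0.246, 0.425, 0.0535 and 0.191 CPM and 0.615, 0.835, 0.751, 0.651 and 0.407 CPM. Neither was called (edgeR adjusted p = 0.129 and 0.206), and Trim9 was highest among WT tumors in WT tumor 2. Without WT tumor 2 Trim9 had a log2 fold change of 1.49 and was called higher, and without WT tumor 4 Trim67 was called higher. Trim9 reached the minimum of the filter on low counts in 2 WT and 5 D69A tumors, so that it entered the test through the D69A tumors.

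The striated muscle members fell into different patterns by gene, set here beside the sums of 9 skeletal muscle markers. These sums were 125, 1030, 1520, 47.1 and 16.2 CPM in WT tumors 2 to 6 and 541, 24.3, 17.6, 116 and 15.6 CPM in D69A tumors 1 to 5. Of the 9 markers 0 were called by edgeR, 0 had an unadjusted p under 0.05, and DESeq2 and limma-voom called 0. Trim72, which encodes the membrane repair protein MG53, was at 0.775, 4.73, 5.82, 0.428 and 0 CPM in WT tumors and 2.86, 0, 0, 0.325 and 0 CPM in the D69A group, highest in WT tumors 4 and 3 and D69A tumor 1. Trim54 (MuRF3) had the same 3 tumors on top, with 0.362, 1.75, 2.47, 0 and 0 CPM in WT tumors and 0.775, 0, 0, 0.296 and 0 CPM in the D69A group. Trim55 (MuRF2), not tested, was highest in these 3 as well, at 0.71 and 0.93 CPM in WT tumors 3 and 4 and 0.481 CPM in D69A tumor 1, against at most 0.181 CPM elsewhere. Trim72 (log2 fold change -1.87, SE 1.44) and Trim54 (-2.08, SE 1.37) were not called. Without D69A tumor 1 Trim72 had a log2 fold change of -4.81 (edgeR adjusted p = 0.0275) and Trim54 of -3.6 (edgeR adjusted p = 0.0877), and without WT tumor 4 they came to -1.21 and -1.29. Of the exon sequence of Trim72 27.6% and of that of Trim54 26.6% lies opposite antisense genes.

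Trim63 did not share that order. It encodes MuRF1, the ligase best known for breakdown of contractile proteins in wasting muscle, and lies on chromosome 4 (134315120 to 134329629). Its level was 48.7, 37.3, 40.5, 36.1 and 44.7 CPM in WT tumors and 45.2, 49, 61.3, 61.1 and 64.7 CPM in the D69A group. At 17.2 RPKM over the 10 tumors it ranked 6 of 52 members per length, against 0.669 RPKM for Trim72 and 0.394 RPKM for Trim54. WT tumor 4, with the highest muscle marker sum, had 40.5 CPM, and D69A tumor 5, with the lowest, had 64.7 CPM, the highest of all. The groups overlapped by D69A tumor 1, and Trim63 was 1.36-fold higher in D69A tumors (log2 fold change 0.44, SE 0.12, edgeR adjusted p = 0.0112). Without the 3 tumors highest in muscle markers the log2 fold change was 0.45 and the call was kept. The melanocyte marker sums given above were higher in each D69A tumor than in each WT tumor, and their part in the Trim63 value was not tested.

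**Figure D4:**
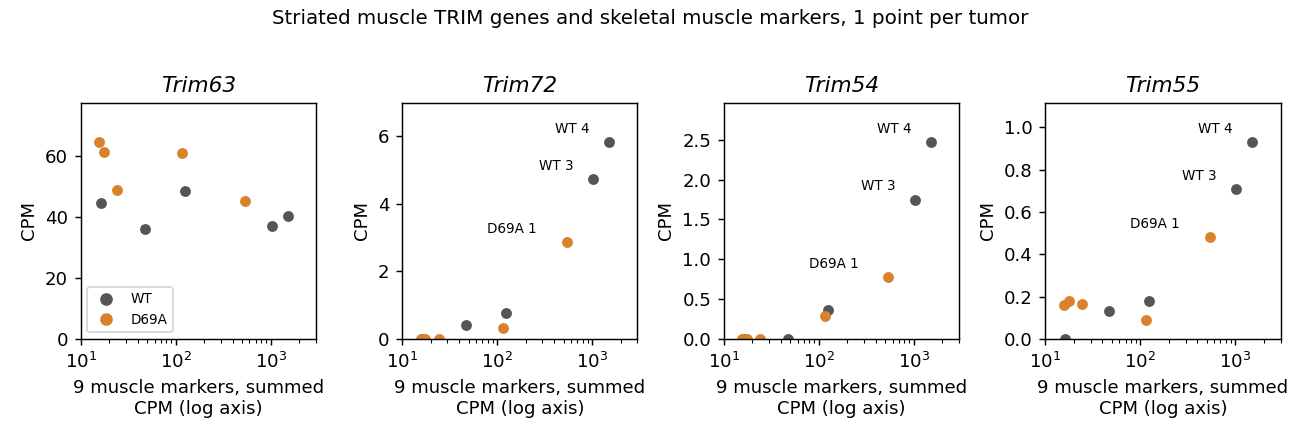
CPM of the 4 striated muscle TRIM genes (vertical axes) against the summed CPM of 9 skeletal muscle markers (horizontal log axes), 1 point per tumor, WT grey and D69A orange. Trim72, Trim54 and Trim55 are highest in D69A tumor 1 and WT tumors 3 and 4, the tumors richest in muscle markers, and Trim63 lies between 36.1 and 64.7 CPM in all 10.

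The remaining 16 members held 7 decreases and 3 increases (43.8% and 18.8%, against 24.7% and 18.8% of all genes tested). The largest decrease was that of Trim47, at 4.62, 8.66, 6.75, 10.2 and 5.16 CPM in WT tumors and 3.42, 2.14, 2.16, 2.01 and 2.17 CPM in the D69A group (2.97-fold lower, log2 fold change -1.57, SE 0.25, edgeR adjusted p = 0.000994). D69A tumor 1 again stood above its group, and 6.58% of the 50-base stretches of Trim47 also occur in its neighbour Trim65, which was not called. Trim39, a gene of the major histocompatibility region like Trim26, was at 26.6, 30.4, 32.7, 28.6 and 18.7 CPM in WT tumors and 21.7, 16.1, 17.2, 15.4 and 16.4 CPM in the D69A group (1.58-fold lower, edgeR adjusted p = 0.00481), with WT tumor 6 inside the D69A range. Trim69 was at 0.388, 0.546, 0.425, 0.402 and 0.421 CPM in WT tumors and 0.267, 0.167, 0.15, 0.177 and 0.136 CPM in the D69A group (2.4-fold lower, edgeR adjusted p = 0.0063). It reached the minimum of the filter on low counts in 5 WT and 0 D69A tumors, so that it entered the test through the WT tumors. The other called decreases were those of Trim16 and Trim68 (log2 fold change -0.6 each), Trim11 (-0.39) and Trim8 (-0.15). Trim16 and Trim8 lost their calls when any of 5 and 9 single tumors was left out, respectively, and Trim11 without D69A tumor 3.

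Trim37 showed the largest called increase of the family. It encodes a centrosomal ligase that limits the assembly of centrioles outside their normal site, and lies on chromosome 11 (87127077 to 87220683). It stood at 99.6, 81.7, 87.1, 72.2 and 108 CPM in WT tumors and 122, 142, 133, 145 and 137 CPM in the D69A group, which did not overlap (1.51-fold higher, log2 fold change 0.6, SE 0.1, edgeR adjusted p = 0.00128). Trim62 was at 16, 9.4, 13.6, 11.8 and 15.5 CPM in WT tumors and 18.5, 20.9, 17.5, 14.1 and 17.8 CPM in the D69A group, which overlapped, and passed narrowly (1.34-fold higher, edgeR adjusted p = 0.0439). Its call was lost when any of 7 single tumors was left out. Trim44, which lacks a RING domain, rose by the smallest called amount, from 175 to 185 CPM in WT to 188 to 203 CPM in D69A tumors (log2 fold change 0.11, SE 0.04, edgeR adjusted p = 0.0493), and lost its call when any of 6 single tumors was left out. Trim62 and Trim44 also lost their calls with upper quartile scaling and with library size only, which left 5 members higher. Trim35 (log2 fold change 0.14, edgeR adjusted p = 0.0554), abundant in both groups, was not called, nor were Trim41 (-0.05), Trim45 (0.13), Trim50 (-0.07), Trim7 (-0.32) and Trim17 (-1.23).

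The coefficient of variation between WT tumors had a median of 28.1% over the 9 tested cluster members and of 17.3% over all 50 tested members, and between D69A tumors of 44.3% and 16.5%. By role it was lowest in WT tumors for the 4 TIF1 members (9.8%, and 7.68% in D69A tumors) and highest for the 3 striated muscle members (115% and 158%). For the 4 microtubule members it was 21% and 21.7%, and differences in spread between roles were not tested. WT tumor 2 was the lowest WT tumor, or tied for lowest after rounding, in 25 of the 50 members, 8 of them in the cluster. D69A tumor 1 was the highest D69A tumor, or tied for highest, in 25, of which 8 were in the cluster.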

How the data were processed

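RNA from 10 tumors was sequenced, and the submitters deposited 1 table of read counts per gene, whole numbers that were not normalized. HISAT, Bowtie, RSEM and fastp, and the build mm10, are named per the submitters' processing notes. What each did, its version and whether counting used strand is not given in the sources used here. All 10 columns of the deposited counts were used (columns not used: 0) and matched to tumors by title. Gene symbols, positions and exon lengths came from GENCODE vM21 (mm10), and 67 identifiers had no symbol.

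Counts were scaled by TMM and fitted with edgeR 4.0.16 (R 4.3.3; filterByExpr by group, which asked for 0.275 CPM in 5 tumors; quasi-likelihood test, Benjamini-Hochberg adjustment, threshold 0.05) over 13798 genes. Of the 50 tested members 42 reached the minimum in all 10 tumors and 8 in fewer (Trim9, Trim17, Trim30c, Trim34b, Trim54, Trim66, Trim69 and Trim72). Total counts of 25904345 to 37578722 put 3 counts at 0.0798 to 0.116 CPM. Replicates differed by more than sampling noise (smallest chi-square per degree of freedom 13.9). Alternatives were DESeq2 1.42.0, limma-voom (limma 3.58.1), other scalings, filters and a test against a fold of 1.5, the replicate block, and leaving out tumors. Leaving out WT tumor 2 and D69A tumor 1 together was chosen after seeing the data.

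Members and lists were chosen with earlier results of these data known. Values in every tumor are given for the 8 called members with the largest decreases and the 6 with the largest increases (mean of at least 1 CPM), for the 4 members of each role with the smallest p, and for each tested striated muscle member; of the other lists, up to 4 genes with the smallest p are named. Genes named beyond this rule were chosen after their values were seen. Mb21d1 and Krt14 found no match among the symbols. Trim42, Trim52, Trim58 and Trim60 were not analysed here. The result of 1 further gene list is not reported here.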

Additional observations from a re-analysis of the deposited data

Results flagged for a closer look

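A tumor stood apart from the other 4 of its group in 11 of the 100 groups of TRIM values examined, by a gap to the nearest tumor above the 95% critical value of Dixon's ratio. Chance alone gives about 1 in 20. Of the 11, 8 were in D69A tumors, and 7 of these were D69A tumor 1, which was high each time. Its values were 33.1 CPM for Trim30a (others 11.3 to 17.2), 14.3 CPM for Trim25 (others 6.97 to 8.39), 57.5 CPM for Trim26 (others 45.8 to 49.1) and 3.42 CPM for Trim47 (others 2.01 to 2.17). It also had 21.7 CPM for Trim39 (others 15.4 to 17.2), 26.3 CPM for Trim11 (others 20.7 to 21.6) and 2.86 CPM for Trim72 (others 0 to 0.325). D69A tumor 1 had the highest sum of pan-leukocyte markers of its group (434 CPM, others 207 to 250). Its sums of skeletal muscle markers (541 CPM, others 15.6 to 116) and fibroblast markers (1330 CPM, others 369 to 851) were also the highest. So were its sums of T and NK cell, macrophage and monocyte, B cell and endothelial markers. The part of these markers in the values above was not tested.

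The other 4 values had no tumor in common. Trim66 was low in WT tumor 2 at 0.775 CPM (others 1.7 to 1.99), and Trim13 was low in WT tumor 5 at 7.2 CPM (others 9.17 to 9.33). Trim69 was high in WT tumor 3 at 0.546 CPM (others 0.388 to 0.425), and Trim50 was low in D69A tumor 3 at 0.691 CPM (others 1.04 to 1.17).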

How the results depend on the processing

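The number of members lower in D69A tumors (25) and higher (7) stayed within 1.5 times in all alternatives but the test against a fold of 1.5, which called 14 lower and 0 higher (edgeR's glmTreat, 0 higher also at an unadjusted p under 0.05), since it asks for more than a difference from 0. Without that minimum fold, DESeq2 called 9 higher and limma-voom 6. Leaving out 1 tumor gave 20 to 25 lower and 5 to 9 higher. Of the 32 called members 22 kept their direction and call in all alternatives run other than the test against a fold of 1.5, and Trim8, Trim11, Trim16, Trim3, Trim44, Trim46, Trim56, Trim62, Trim66 and Trim68 lost the call in at least 1. No called member changed direction. Trim13, not called, had log2 fold changes of -0.02 with upper quartile scaling, -0.04 with library size only, 0 with at least 1 CPM in at least 5 tumors, -0.02 without WT tumor 5 and -0.01 without D69A tumor 2, against 0.01 (-0.02 to 0.05 over the 10 fits that leave out 1 tumor). Trim50, not called, came to 0.02 without WT tumor 3, 0.03 without WT tumor 5 and 0.08 without D69A tumor 3, against -0.07 (-0.17 to 0.08 over these fits). The cause was not tested. Of the calls over all genes 43.2% were higher, and 33.6% with library size only; among the TRIM calls the share was 21.9% and 16.7%. With the replicate block 24 members were lower and 7 higher: Trim8, Trim16, Trim44, Trim56 and Trim66 lost the call, and Trim7 (log2 fold change -0.37), Trim54 (-4.24), Trim72 (-5.48) and Trim35 (0.18) gained one. The shared numbers 2 to 5 do not pair the tumors (correlations of deviations 0.18, -0.42, 0.2 and 0.17), and numbers 1 and 6 occur in 1 group only. For genes under about 1 CPM the depth limits what can be seen.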

Other observations

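The 12 TRIM genes of the count table below a mean of 10 counts were near the limit of detection. Trim31, Trim40 and Trim80 had counts in 1 tumor each (WT tumor 4 for Trim31, WT tumor 2 for Trim40 and Trim80). Trim43b was seen in 4 of the 5 WT tumors, at 0.0517 to 0.137 CPM (2 to 5 counts), and in 0 of the 5 D69A tumors. Trim75 went the other way, with 5 counts in D69A tumor 2, 4 in D69A tumor 5 and 0 in every WT tumor. Trim43c, the only one of them with enough counts to be tested, had a log2 fold change of -0.15 (SE 0.39, edgeR adjusted p = 0.776).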
